A study of Mus musculus with 66 samples.

Results

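The caspases, the Bcl2 family and the inhibitor of apoptosis proteins (IAPs) form the core machinery of apoptosis, and their transcripts were followed in the mouse ventral striatum over the day after a saline or cocaine injection. Members were chosen by gene symbol: every caspase, every gene whose symbol starts with Bcl2 or with Birc and a digit, and Bax, Bak1, Bad, Bid, Bik, Bmf, Bbc3, Mcl1, Apaf1, Xiap and Diablo. This gave 39 of the 24138 genes listed. Of these, 29 reached 1 FPKM in at least 1 library and were tested together with all 14643 genes that did so. The other 10 members are described by their level only.

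The study asked how dopamine D2 receptors (D2R) of indirect pathway medium spiny neurons (iMSNs) shape the daily transcriptome of the nucleus accumbens (NAcc) and its response to cocaine. Punches of ventral striatum were taken at 6 zeitgeber times (ZT, hours after lights on) from ZT3 to ZT23, every 4 h, with 3 libraries per group. Mice were males of a C57BL/6 background, aged 3 to 5 months. WT mice were D2R flox/flox, thus carried floxed receptor alleles without Cre, and iMSN-D2RKO mice were D2R flox/flox/D1R-CRE+/-. In the latter the D1R promoter drives Cre in precursors common to D1R and D2R spiny neurons, so that D2R is lost from iMSNs while other D2R-expressing cells of the punch keep it. Mice of the later times received 1 intraperitoneal injection of saline or of cocaine, 20 mg/kg, at ZT3. The 6 libraries of ZT3 serve both treatments, and their labels do not separate saline from cocaine, which leaves 66 distinct libraries in 22 groups: WT and iMSN-D2RKO at ZT3, and each genotype after saline and after cocaine at ZT7, ZT11, ZT15, ZT19 and ZT23. The labels do not say whether the 3 libraries of a group came from separate animals, and p-values measure the spread between libraries.

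In the intrinsic pathway, BH3-only proteins such as Bad, Bid, Bmf, Bbc3 and Bcl2l11 sense damage or loss of survival signals, neutralise the protective Bcl2, Bcl2l1, Bcl2l2 and Mcl1 proteins, and release Bax and Bak1 to open the outer mitochondrial membrane. Cytochrome c then assembles Apaf1 and Casp9 into the apoptosome, which activates the caspases downstream, whereas death receptors act through Casp8. IAPs such as Xiap and Birc2 restrain caspases or death receptor signalling and are countered by Diablo. Adult neurons are known for keeping this machinery under tight control, and several of its proteins also have roles in synaptic plasticity and mitochondrial shape.

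All libraries held RNA of the labelled tissue: the spiny neuron markers Drd1 (median 102 FPKM), Adora2a (182 FPKM) and Penk (1651.9 FPKM) were high. Total FPKM ran from 364078 to 690048 per library with a median of 396432, and read numbers are unknown, so that the 3 libraries of a group set the precision. Drd2 had a median of 129 FPKM in WT (99.1 to 304 in 33 libraries) and 112 FPKM in iMSN-D2RKO (78.0 to 375 in 33 libraries). These ranges overlapped, so that the gene-level values do not separate the genotypes by themselves. Genotypes are those of the labels, and what part cells that keep the receptor have in these values was not tested. Markers of other cells were present, such as the cortical Slc17a7 (1.78 to 233 FPKM) and the choroid plexus Ttr (0 to 1104 FPKM). In such bulk tissue, fewer cells of a type and less RNA per cell cannot be told apart. A total of 13 libraries stood apart on the first axis of the differences between libraries of the same group, an axis that held 43.6% of that variance. They scored from 44.3 to 56.1, and the other 53 libraries from -35.9 to 15.1. They numbered 6 WT and 7 iMSN-D2RKO libraries, and 12 of the 13 came from ZT15, ZT19 or ZT23. They are called the set-apart libraries here. Members called for genotype by time or as rhythmic are given with and without them, and other results mostly with them only. A further 2 libraries were extreme, iMSN-D2RKO saline ZT7 replicate 1, with the highest value of 24.3% of tested genes, and WT cocaine ZT15 replicate 3, with that of 20.1%.

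Promoters are shown for the 4 members whose daily courses carry the results below, Casp9, Birc2, Mcl1 and Bak1, as the 250 bases before each RefSeq start site in GRCm38.p6, on the strand of the gene. Capitals mark a GC box (GGGCGG or CCGCCC) or a cAMP response element (TGACGTCA). Birc2 has a pair of adjacent start sites. In GRCm38 the gene of Casp9 spans chr4:141793612-141815976 on the plus strand, Birc2 chr9:7818227-7837064 on the minus strand, Mcl1 chr3:95658788-95663176 on the plus strand and Bak1 chr17:27019810-27029009 on the minus strand, and all 4 code for proteins.
Casp9, plus strand, chr4:141793362-141793611: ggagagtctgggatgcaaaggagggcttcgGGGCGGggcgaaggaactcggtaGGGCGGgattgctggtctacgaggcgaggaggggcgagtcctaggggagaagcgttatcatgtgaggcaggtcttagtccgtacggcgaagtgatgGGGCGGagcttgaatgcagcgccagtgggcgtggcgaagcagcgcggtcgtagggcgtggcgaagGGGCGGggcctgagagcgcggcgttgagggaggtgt
Birc2, minus strand, chr9:7836807-7837056: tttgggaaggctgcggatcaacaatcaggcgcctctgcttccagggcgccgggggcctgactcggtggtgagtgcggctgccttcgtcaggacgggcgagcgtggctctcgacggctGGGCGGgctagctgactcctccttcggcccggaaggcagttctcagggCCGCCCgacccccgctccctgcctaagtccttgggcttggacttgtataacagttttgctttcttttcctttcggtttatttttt
Birc2, minus strand, chr9:7837058-7837307: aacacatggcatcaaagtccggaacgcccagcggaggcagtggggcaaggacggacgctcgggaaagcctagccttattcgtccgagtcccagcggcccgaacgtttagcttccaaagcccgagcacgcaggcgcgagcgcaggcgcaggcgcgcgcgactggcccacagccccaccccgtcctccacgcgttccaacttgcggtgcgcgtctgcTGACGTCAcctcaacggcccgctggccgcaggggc
Mcl1, plus strand, chr3:95658471-95658720: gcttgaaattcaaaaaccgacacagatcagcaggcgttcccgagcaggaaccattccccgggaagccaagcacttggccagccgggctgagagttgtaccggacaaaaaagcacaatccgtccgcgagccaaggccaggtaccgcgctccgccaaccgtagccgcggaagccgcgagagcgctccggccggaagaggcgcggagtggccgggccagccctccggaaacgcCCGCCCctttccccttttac
Bak1, minus strand, chr17:27028628-27028877: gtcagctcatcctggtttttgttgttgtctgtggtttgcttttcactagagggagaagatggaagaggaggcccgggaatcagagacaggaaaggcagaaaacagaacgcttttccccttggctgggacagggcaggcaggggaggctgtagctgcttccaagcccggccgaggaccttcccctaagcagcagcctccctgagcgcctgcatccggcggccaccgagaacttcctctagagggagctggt

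Casp9 has 4 GC boxes in this window, 1 Birc2 start has 2, Mcl1 has 1 and Bak1 none. The other Birc2 start has a TGACGTCA beginning 35 bases before the start. These are matches of letters, not sites shown to be bound. The windows of Bak1 and of the Birc2 start with 2 GC boxes lie within the gene spans given above. They precede starts inside those spans, so that the lack of a GC box for Bak1 holds for this window only. Of the 39 members, 35 had a RefSeq promoter, 48 promoters in all, and 26 of these 48 promoters held a GC box, beside 32.7% of all 32851 mouse promoters searched on both strands. TGACGTCA was held by 1 of the 48, that of Birc2, and by 1.55% of all promoters. The E-box CACGTG, bound by clock proteins, was held by 3 of the 48, those of Bax, Bbc3 and Casp1 (6.02% of all promoters). The D-box TTATGTAA was held by 0 of the 48 (0.819% of all), the half-site AGGTCA by 6 (14% of all), and the CCAAT box, CCAAT, by 13 (33.8% of all).

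Protective Bcl2 proteins had the highest summed level of all roles, with a median of 116.5 FPKM per library, followed by the pore formers (52.5 FPKM), the IAPs (44.6 FPKM) and the BH3-only genes (36.7 FPKM). The initiator caspases summed to a median of 12.7 FPKM. FPKM counts fragments per kilobase of transcript and per unit of library size, so that levels of genes of different length can be set side by side. Of the 39 members, 9 had a mean of at least 10 FPKM over the 66 libraries and 17 had at least 1 FPKM in every library.

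Among the protective members, Bcl2l1, which encodes Bcl-xL, had the highest mean level of all (47.9 ± 6.71 FPKM, SD, n = 66), with 32.9 FPKM in the lowest library, a median of 50.05 and 57.7 in the highest. Bcl2l2, encoding Bcl-w, followed with 38.5 ± 5.73 FPKM, and Mcl1, a short-lived protective protein, with 23.5 ± 5.54 FPKM. Bcl2 itself was the least abundant of these 4, at 5.04 ± 0.941 FPKM. Bcl2a1b, a protective protein of blood and microglial cells, averaged 0.704 FPKM, and its near-identical copies Bcl2a1a, Bcl2a1c and Bcl2a1d reached 1 FPKM in no library. How reads are shared among these copies is uncertain. The 9 protective members together summed to between 97.3 and 129 FPKM per library, a narrow range.

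The pore-forming Bax was close to Bcl2l1, at 45 ± 15.8 FPKM, with a median of 47.1 and extremes of 20.8 and 126 FPKM. Bak1, the other pore former, stood much lower at 5.28 ± 1.38 FPKM. Bax exceeded Bcl2l2 in 48 of 66 libraries and lay below Bcl2l1 in 46, so that neither order held throughout. The ratio of Bax to Bcl2l1 had a median of 0.922 (0.53 to 2.21) and that of Bax to Bcl2 a median of 9.16 (3.26 to 59.9).

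Of the BH3-only genes, Bad, whose protein is held inactive by growth factor signalling, was the highest, with a mean of 28.5 ± 9.32 FPKM, a lowest value of 11.5, a median of 27.8 and a highest of 76.1 FPKM. Bbc3 (Puma, a p53 target) averaged 3.48 FPKM and Bid, cleaved by Casp8, 3.39 FPKM. Each was the higher in 33 of 66 libraries, so their order is not settled. Bmf averaged 0.798 and Bcl2l11 (Bim) 0.752 FPKM, and Bik reached 1 FPKM in none.

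Caspases were low. The initiator Casp9 led them, with a mean of 7.49 ± 1.42 FPKM and 4.42, 7.65 and 9.86 FPKM as its lowest, median and highest library. Casp2, an initiator linked to genotoxic stress, averaged 4.08 FPKM and Casp8, the initiator at death receptors, 0.976 FPKM. Casp6, which acts downstream of the initiators, averaged 2.15 FPKM. Apaf1, the apoptosome scaffold, averaged 2.79 FPKM with a lowest of 0.925, a median of 2.81 and a highest of 4.49 FPKM. The inflammatory caspases were lower still: Casp1, the interleukin-1 converting enzyme, averaged 0.499 FPKM (0.104 to 1.21, median 0.494), Casp12 0.323 FPKM and Casp4 0.17 FPKM. Casp14, a caspase of the skin, was above 0 in 1 of 66 libraries.

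Among the IAPs, Xiap, a direct caspase inhibitor, led with 23.4 ± 5.65 FPKM (7.05 to 36.1, median 21.8). Birc2 (cIAP1, a ubiquitin ligase at tumour necrosis factor receptors) had 12.2 ± 2.23 FPKM and the giant ubiquitin ligase Birc6 11.3 ± 4.61 FPKM. Birc3 averaged 0.629 FPKM. Diablo, the mitochondrial IAP antagonist, stood at 14.2 ± 2.15 FPKM, between 11.3 and 27.8 with a median of 14.1. It was below Xiap in 63 of 66 libraries. Bcl2l13, a mitochondrial relative with a role in mitophagy, led the remaining family at 7.91 ± 0.865 FPKM (4.19 to 11.4, median 8). Its relatives Bcl2l12 and Bcl2l15 averaged 1.63 and 0.381 FPKM. Birc7, Bcl2l10 and Bcl2l14 stayed under 1 FPKM in all libraries, with highest values of 0.5, 0.322 and 0.0567 FPKM.

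Birc5 (survivin), a mitotic protein, averaged 0.969 FPKM and varied from 0.0466 to 3.59 FPKM. Its highest library, WT cocaine ZT19 replicate 2, ranked 9 of 66 for the summed markers of dividing cells, and the next, WT cocaine ZT15 replicate 2 (2.73 FPKM), ranked 2. Their part in this value was not tested.

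**Figure D1:**
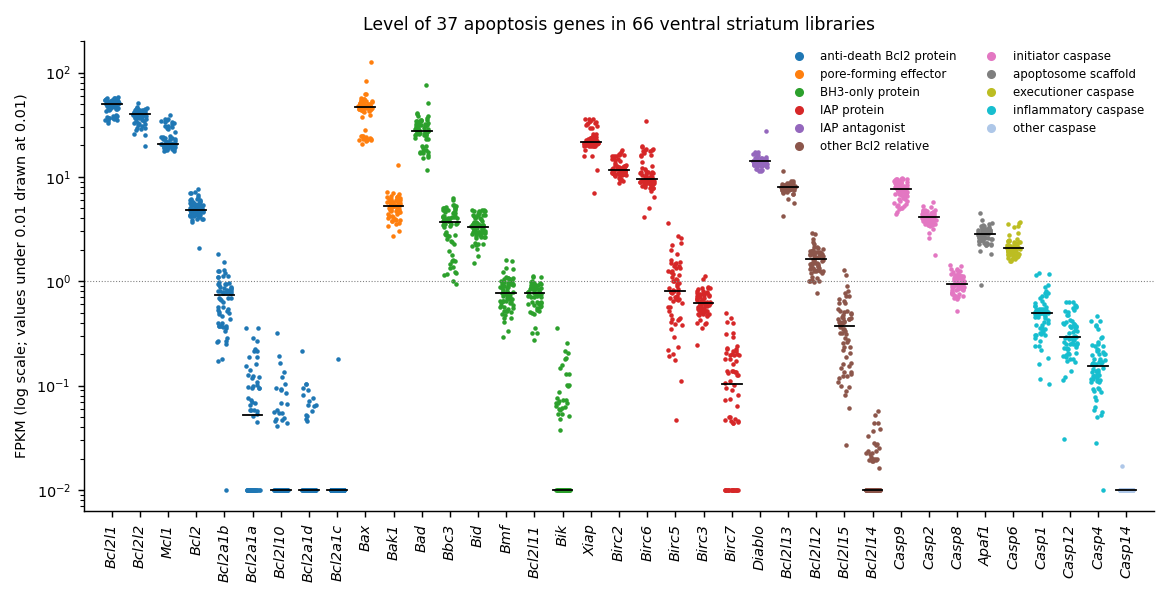
FPKM, on a log scale, of 37 of the 39 apoptosis genes in each of the 66 libraries, 1 point per library, grouped and coloured by role, with a bar at the median and a dotted line at 1 FPKM (values under 0.01 are drawn at 0.01). Bcl2l1, Bax and Bcl2l2 lie highest, with means of 47.9, 45 and 38.5 FPKM, and several members, such as Casp14 and Bcl2a1c, lie at the floor in nearly all libraries.

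Between libraries of the same group, the members' median SD was 0.194 on the log2(FPKM + 1) scale, beside 0.264 for all tested genes. Without the set-apart libraries these medians came to 0.187 and 0.200. On this scale the smallest values were those of Casp8 (0.102) and Birc3 (0.134), and the largest those of Bbc3 (0.519), Bax (0.478), Birc6 (0.465) and Birc5 (0.464). Casp8 and Birc3 averaged 0.976 and 0.629 FPKM, a level at which this scale understates the spread.

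The set-apart libraries differed from the others most in Bbc3, Bax and Bad, which were lower there, and in Birc6, Xiap and Mcl1, which were higher. Without them the within-group SD of Bbc3 came to 0.230, of Bax to 0.289 and of Mcl1 to 0.105 (from 0.247), while that of Birc5 came to 0.443. Bbc3 was between 0.938 and 1.79 FPKM in the 13 set-apart libraries (median 1.34) and between 1.93 and 6.22 FPKM in the other 53 (median 4.06). The set-apart libraries all lay below the others. Bax was between 20.8 and 28.3 FPKM in the set-apart libraries (median 23.1) and between 24.2 and 126 in the others (median 48.4), and its ranges met only at their ends. Compared within their groups on the log2(FPKM + 1) scale, the set-apart libraries were lower by a difference of -1.21 for Bbc3, -1.04 for Bax and -0.92 for Bad. Bcl2l1 (-0.40), Bcl2l2 (-0.35), Casp9 (-0.34) and Bak1 (-0.33) were lower by less.

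Xiap went the other way, with 29.3 to 36.1 FPKM in the set-apart libraries (median 33.1) and 7.05 to 26 in the others (median 21.3). Here too the 2 ranges did not overlap. Differences were 0.88 for Birc6, 0.61 for Xiap, 0.55 for Mcl1 and 0.33 for Birc2. Roles were not uniform: the IAP Birc5 was lower (-0.20) and Birc3 near the others (0.10), and Diablo (-0.04), Casp2 (0.02) and Casp8 (0.02) differed little. The ratio of Bax to Bcl2l1 had a median of 0.644 in the set-apart libraries and 0.954 in the others, and that of Diablo to Xiap 0.402 and 0.655. A difference beyond 0.5 in either direction was found for 6 of 29 members and for 33.8% of all tested genes, so the shift was not particular to apoptosis. These libraries were recognised from the data, and no test was made of them.

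Base composition moved with this shift. The coding transcripts of Bbc3, Bax and Bad hold 65.2, 63.5 and 57.1% G + C, and that of Xiap 36.8%. Single members departed from this: Birc6 and Mcl1, also higher there, hold 46.4 and 48.7%, near the members' median of 47.7%. Bcl2l12, at 57.2%, differed by only -0.18. Over the 29 members the shift had a Spearman correlation of -0.77 with G + C content and of 0.31 with length. Over 13140 of 14623 tested genes with a known transcript the values were -0.65 and 0.41. These are descriptions across genes that share the same libraries. The summed oligodendrocyte markers had a median of 2377 FPKM in the set-apart libraries (1825.5 to 3689.4) and 3170.6 in the others (2075.2 to 5756.9), and the astrocyte markers 586 (529.7 to 622) and 458 FPKM (320.2 to 611). All 6 of 6 markers of each list were detected. The part of base composition, RNA quality or cell makeup in the shift was not tested.

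**Figure D2:**
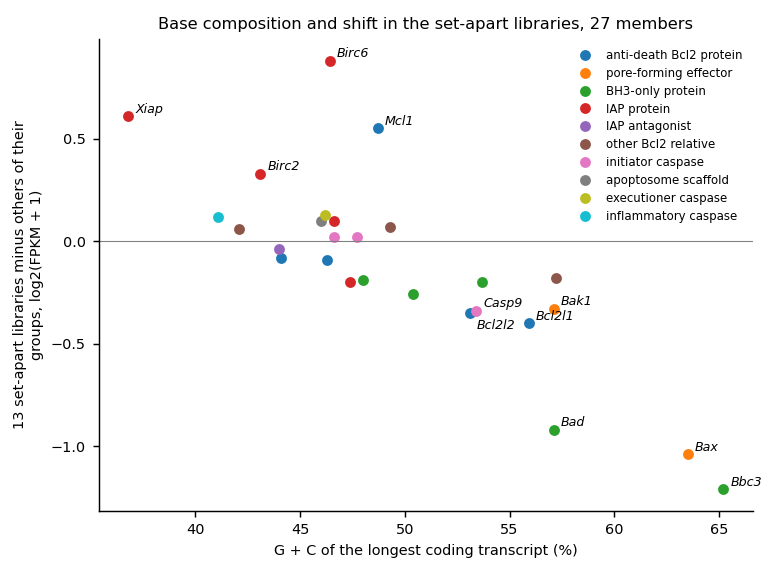
Difference between the 13 set-apart libraries and the others of their groups, log2(FPKM + 1), against the G + C content of the longest coding transcript (%), 1 point for each of 27 members, coloured by role. GC-rich Bbc3 and Bax lie lowest, at -1.21 and -1.04, and Birc6 and Xiap highest, at 0.88 and 0.61.

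**Figure D3:**
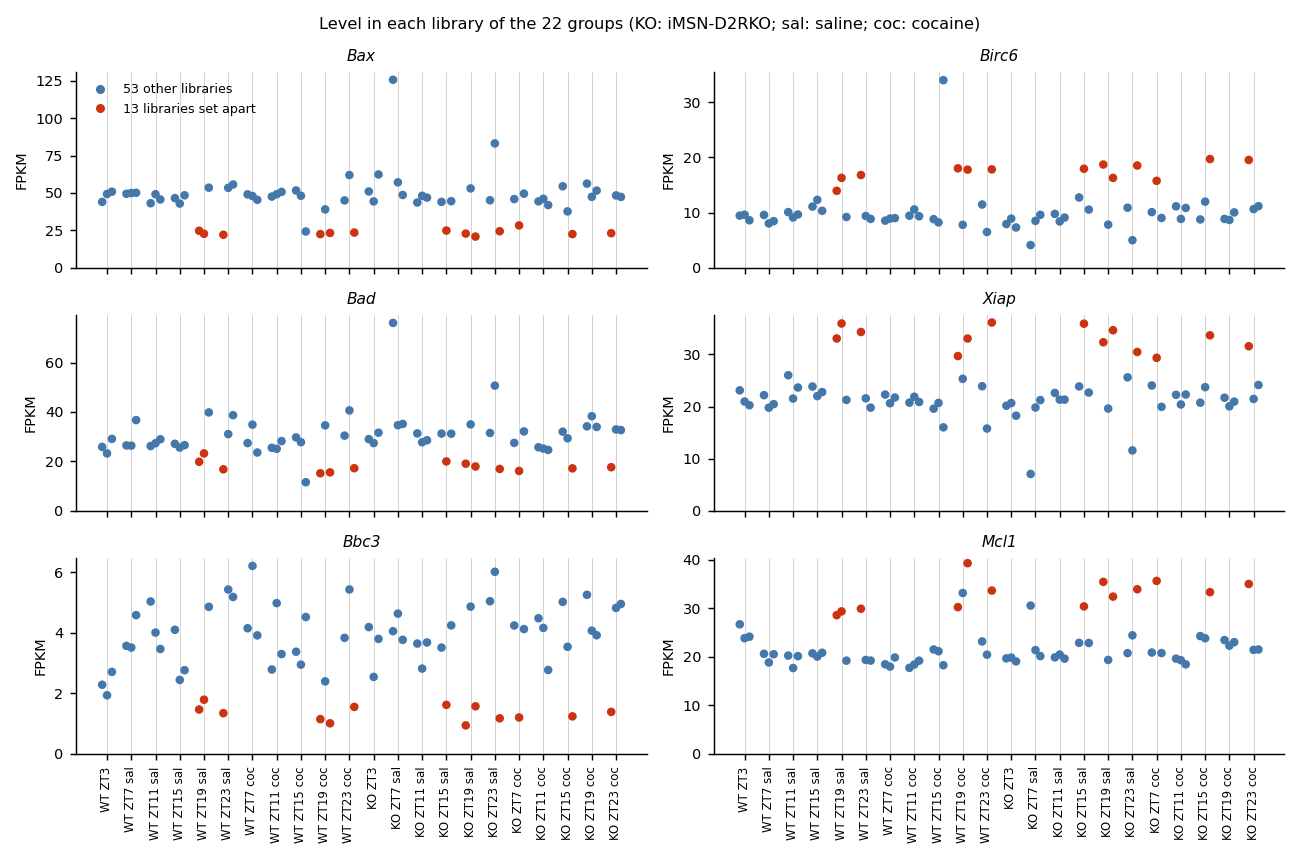
FPKM of Bax, Bad, Bbc3, Birc6, Xiap and Mcl1 in each library of the 22 groups, 1 point per library, with the 13 set-apart libraries in red and the other 53 in blue (KO, iMSN-D2RKO). The red points of Bbc3 lie at or under 1.79 FPKM, under all blue points, and those of Xiap at or over 29.3 FPKM, above all blue points.

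Of the 2 extreme libraries outside this set, WT cocaine ZT15 replicate 3 held the highest value of 5 members and the lowest of 4, and iMSN-D2RKO saline ZT7 replicate 1 stood out more. It held the highest value of 7 members, among them Bax (126 FPKM, beside 57.1 and 48.7 in its group), Bad (76.1 beside 34.7 and 35.2) and Bak1 (13 beside 5.76 and 5.29). It held the lowest value of 7 others, among them Xiap (7.05 beside 19.8 and 21.2) and Apaf1 (0.925). The mean of its group was the highest of the 22 for 5 members and the lowest for 6, with no share of all tested genes beside these counts.

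No member's mean level differed between the genotypes past the threshold. Over ZT7 to ZT23 after saline, limma called 0 of 29 members at an adjusted p below 0.05, beside 0.212% of all tested genes, and 5 of 29 had an unadjusted p below 0.05, beside 11.3% of all genes. Members' differences of log2(FPKM + 1), iMSN-D2RKO minus WT, lay between -0.23 and 0.19 with a median of -0.014, and the median of all genes was 0.011.

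Casp9 had the smallest p. Its level in the 15 WT saline libraries ran from 6.34 through a median of 8.13 to 9.50 FPKM, and in the 15 iMSN-D2RKO ones from 4.42 through 6.93 to 8.90 FPKM. The ranges overlapped widely, with the mutant libraries lower on the whole. The difference was -0.23 (SE 0.06), with an adjusted p of 0.103 in limma. With the library score as a covariate Casp9 was called (-0.22), as it was without WT saline ZT23 replicate 1 or iMSN-D2RKO saline ZT7 replicate 2. The next members were Bmf (-0.17) and Bcl2 (-0.16), lower in the mutant, and neither passed the test (adjusted p of 0.22 and 0.331 in limma).

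After cocaine the genotypes again differed in 0 of 29 members, beside 0.109% of all tested genes, with 2 of 29 at an unadjusted p below 0.05 and 4.95% of all genes. The smallest p was that of Bcl2a1b, with 0, 0.482 and 1.28 FPKM as lowest, median and highest of 15 WT libraries, and 0.263, 0.856 and 1.52 FPKM in iMSN-D2RKO. The mutant libraries reached higher, but the ranges overlapped and the adjusted p was 0.767 in limma (difference 0.25, SE 0.10).

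At ZT3, the time of injection, 0 of 29 members were called, beside 0.041% of all genes, and 3 of 29 had an unadjusted p below 0.05, beside 2.04% of all genes. Bcl2 was at 7.07, 5.39 and 6.18 FPKM in the WT libraries and at 3.71, 4.59 and 5.48 FPKM in the mutant ones. The highest mutant library exceeded the lowest WT library, so the groups overlapped slightly, and the difference of -0.37 (SE 0.15) had an adjusted p of 1 in limma.

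Cocaine moved the mean level of no member past the threshold in either genotype. In WT, limma called 0 of 29 members, beside 0.0137% of all genes, and 0 had an unadjusted p below 0.05, beside 2.49% of all genes. Bcl2l15, a little studied Bcl2 relative of low level, came first, with 0.0273, 0.38 and 1.16 FPKM as lowest, median and highest of 15 saline libraries and 0.0615, 0.233 and 0.719 after cocaine. Its ranges overlapped (difference -0.13, SE 0.07, adjusted p of 1 in limma). In iMSN-D2RKO, 0 of 29 members and 0% of all genes were called, with 2 of 29 members and 4.86% of all genes at an unadjusted p below 0.05.

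Bcl2l15 again had the smallest p in the mutant, with a mean of 0.535 ± 0.283 FPKM after saline and 0.323 ± 0.166 after cocaine (SD, n = 15 each). The saline libraries ran from 0.154 through 0.476 to 1.29 FPKM and the cocaine ones from 0.0968 through 0.351 to 0.675, an overlap of most of the range. The difference was -0.20 (SE 0.07) with an adjusted p of 0.91 in limma. Bid had the same size of difference, -0.20 (SE 0.09), and the same adjusted p. The test of whether the cocaine effect differed between genotypes called 0 of 29 members and 0% of all genes, with 0 members and 1.85% of genes at an unadjusted p below 0.05 in limma. Its smallest p was that of Bmf (difference of differences 0.13, SE 0.08, adjusted p of 1). A p above the threshold does not show equal levels, and the interval of each difference is drawn in the plot of differences.

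**Figure D4:**
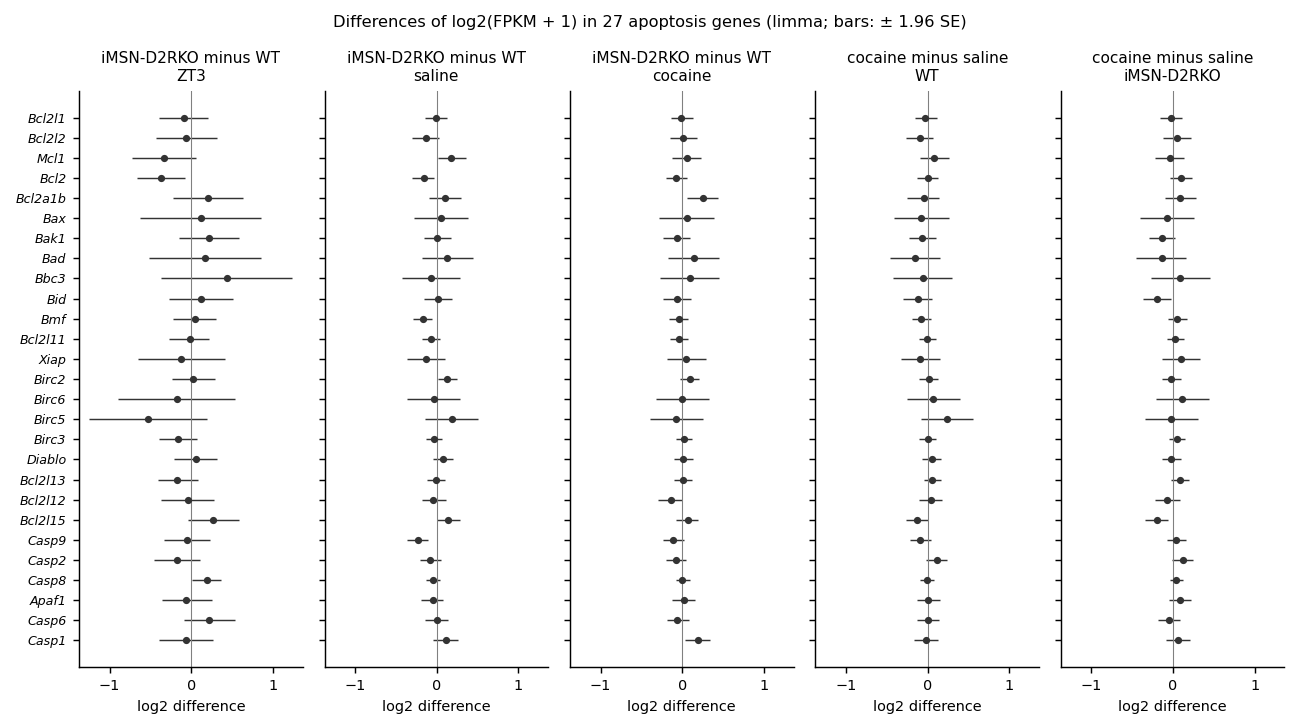
Differences of log2(FPKM + 1) in 27 of the 29 tested members for genotype at ZT3 and for genotype and treatment averaged over ZT7 to ZT23, with bars for 95% intervals from the limma SE. Points lie between -0.53 and 0.44 at ZT3 and between -0.23 and 0.25 in the other panels, and none is called after adjustment.

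At single time points after cocaine, WT again had 0 of 29 members called at any of 5 times, beside 0.0341% of all genes called at 1 or more (0.00683% at ZT7 and at ZT15, 0.0205% at ZT19 and 0% at ZT11 and ZT23). An unadjusted p below 0.05 was found for 1 member at ZT7, 0 at ZT11, 1 at ZT15, 4 at ZT19 and 2 at ZT23. The shares of all genes at these times were 1.81, 0.683, 6.79, 4.9 and 1.28%. Bmf, a BH3-only protein tied to the cytoskeleton, crossed over. At ZT15 it was at 0.594, 0.65 and 0.481 FPKM after saline and at 0.944, 1.09 and 0.965 after cocaine. At ZT19 it was at 0.888, 0.945 and 0.873 FPKM after saline and at 0.448, 0.411 and 0.564 after cocaine. Cocaine libraries were thus all above saline ones at ZT15 and all below them at ZT19. At ZT19, 2 of 3 saline and 2 of 3 cocaine libraries were set apart. The differences were 0.34 and -0.37 (SE 0.13 each), with adjusted p of 0.499 and 0.765 in limma, and the variation of the cocaine effect over time in WT had an adjusted p of 1 for Bmf. That test called 0 of 29 members and 0% of all genes in WT, with 2 members and 2.94% of genes at an unadjusted p below 0.05.

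At ZT23 in WT, Bcl2 was at 3.94, 4.36 and 4.22 FPKM after saline and at 6.38, 4.65 and 7.22 after cocaine. The cocaine libraries were all higher, but the difference of 0.44 (SE 0.15) had an adjusted p of 1 in limma. In this pair of groups 1 saline and 1 cocaine library were set apart.

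In iMSN-D2RKO, 0 of 29 members were called at any time after cocaine, beside 0.0137% of all genes, both of ZT7. That time came nearest, with 10 of 29 members at an unadjusted p below 0.05, beside 22.9% of all genes. Bcl2l15 was at 1.29, 0.776 and 0.716 FPKM after saline and at 0.136, 0.0968 and 0.408 after cocaine, without overlap. Its difference was -0.66 (SE 0.16, adjusted p of 0.0934 in limma), and it was called with the replicate block or with the library score as a covariate. Bak1 was at 13, 5.76 and 5.29 FPKM after saline and at 3.83, 4.43 and 4.79 after cocaine, and its difference was -0.66 (SE 0.19, adjusted p of 0.102 in limma). These saline libraries include the extreme replicate 1. Left with it and 1 other, the test called 4 members without replicate 2 of that group (Apaf1, Bak1, Bcl2l15 and Xiap) and 6 without replicate 3. It called 0 without replicate 1. Leaving out iMSN-D2RKO saline ZT19 replicate 2 gave 2, Bax and Bbc3, and that group then held set-apart libraries alone.

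The variation of the cocaine effect over time in iMSN-D2RKO had 0 of 29 members and 0% of all genes called in limma, and 4 members and 6.75% of genes at an unadjusted p below 0.05. Its smallest p was that of Casp8, at 0.858, 0.824 and 0.76 FPKM after saline at ZT23 and at 1.12, 1.19 and 1.1 after cocaine. At ZT11 its values were 0.714, 0.792 and 0.68 after saline and 0.722, 0.885 and 0.689 after cocaine. Casp8 was thus higher after cocaine in all libraries of ZT23 and overlapped at ZT11, with an adjusted p of 0.637 for the variation.

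The one comparison with called members was the daily course of the genotypes after cocaine. The F test of whether the genotype difference varied over ZT7 to ZT23 called 2 of 29 members in limma, Casp9 (adjusted p = 0.0308) and Birc2 (adjusted p = 0.0315), beside 6.98% of all genes. As a share of the members this is no more than that of all genes, and 8 of 29 members, 27.6%, had an unadjusted p below 0.05, beside 28.4% of all genes.

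Casp9 transcripts were lower in iMSN-D2RKO than in WT at ZT7 and ZT15 and higher at ZT19. At ZT7 after cocaine its WT libraries were at 8.52, 9.14 and 9.86 FPKM and the mutant ones at 8.04, 5.82 and 7.59. At ZT15 they were at 7.72, 8.37 and 8.05 in WT and at 6.16, 6.18 and 4.59 in the mutant. At ZT19 the order was turned, with 5.26, 5.42 and 4.92 FPKM in WT and 7.26, 7.21 and 7.96 in the mutant. The genotypes did not overlap at any of these 3 times, and no share of all genes is set beside this. The differences were -0.33, -0.45 and 0.45 on the log2(FPKM + 1) scale. At ZT11 and ZT23 the genotypes overlapped, with differences of -0.07 and -0.12. After saline, by comparison, Casp9 at ZT19 was at 6.71, 6.79 and 7.35 FPKM in WT and at 5.86, 6.77 and 5.23 in the mutant. At ZT7 after saline the mutant was lower without overlap, with a mean of 6.71 FPKM beside 9 in WT (difference -0.38). The genotypes overlapped after saline at ZT11, ZT15 and ZT23, with differences of -0.03, -0.18 and -0.37. The F test after saline, which ran over ZT3 to ZT23, had an adjusted p of 1.

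Birc2 mirrored Casp9. At ZT7 after cocaine its WT libraries were at 10.4, 10.9 and 10.6 FPKM and the mutant ones at 13.5, 16.7 and 12.3. At ZT15 they were at 11.1, 9.47 and 10.7 in WT and at 12.9, 13 and 17.2 in the mutant. At ZT19 they were at 16.0, 16.2 and 15.1 in WT and at 11.3, 12.7 and 11.9 in the mutant. Mutant libraries were therefore all above WT at ZT7 and ZT15 and all below at ZT19. The differences were 0.37, 0.42 and -0.37, and those at ZT11 and ZT23 were -0.05 and 0.08, with overlap. After saline Birc2 was also higher in the mutant without overlap at ZT7 and ZT11. Its means at ZT7 were 12.4 FPKM in the mutant and 10.9 in WT (difference 0.17), and at ZT11 10.8 and 10.5 (0.03). The genotypes overlapped after saline at ZT15, ZT19 and ZT23, with differences of 0.14, 0.09 and 0.20. The F test after saline, which ran over ZT3 to ZT23, had an adjusted p of 1 in limma.

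Mcl1 and Bak1 ran alongside without passing the test (adjusted p of 0.0781 and 0.0897 in limma). Mcl1 at ZT19 after cocaine was at 30.3, 33.2 and 39.3 FPKM in WT and at 23.5, 22.3 and 23 in the mutant, without overlap. Bak1 at ZT7 was at 6.15, 6.03 and 6.80 FPKM in WT and at 3.83, 4.43 and 4.79 in the mutant, again without overlap. At ZT19 Bak1 was at 2.74, 4.63 and 3.35 in WT and at 5.22, 4.80 and 5.92 in the mutant, with the mutant higher.

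The set-apart libraries lay unevenly over this comparison: 2 of 3 WT and 0 of 3 mutant libraries at ZT19, 0 and 1 at ZT7 and ZT15 each, and 1 and 1 at ZT23. Mcl1 and Birc2 were higher, and Casp9 and Bak1 lower, in set-apart libraries. Without all 13, the test called Casp9 (adjusted p = 0.0194), Birc2 (0.00353) and Mcl1. This leaves WT at ZT19 with 1 library, which is assumed to vary like the other groups. That library, replicate 2, had 5.42 FPKM of Casp9, 16.2 of Birc2 and 33.2 of Mcl1, values like those of its set-apart neighbours. Its score of 15.1 was the highest of all libraries not set apart, so it lay nearest to the set-apart ones on that axis. With the library score as a covariate neither Casp9 (0.145) nor Birc2 (0.0894) was called, and in a fit of the compared groups alone neither was (0.0591 and 0.0774). With libraries scaled to the same total, Birc2 was not called (0.106).

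Both calls also rested on single libraries of ZT15 and ZT19. Left out in turn, WT cocaine ZT15 replicate 3 gave adjusted p of 0.0692 for both Casp9 and Birc2, iMSN-D2RKO cocaine ZT15 replicate 3 gave 0.0913 and 0.0945, and WT cocaine ZT19 replicates 1, 2 and 3 gave 0.052, 0.0747 and 0.0665 for Casp9 and 0.0573, 0.0754 and 0.0549 for Birc2. For iMSN-D2RKO cocaine ZT19 replicates 1, 2 and 3 the values were 0.0796, 0.0573 and 0.0872 for Casp9 and 0.0866, 0.054 and 0.079 for Birc2. Birc2 was also lost without iMSN-D2RKO cocaine ZT7 replicate 2 (0.0533). Without iMSN-D2RKO saline ZT7 replicate 1, which is in neither compared group but in the shared estimate of the spread, 4 members were called, Bak1 and Bcl2l2 in addition. Mcl1 was called in addition without iMSN-D2RKO saline ZT19 replicate 2 or iMSN-D2RKO cocaine ZT23 replicate 1. After saline, the F test of genotype by time ran over ZT3 to ZT23 and thus included ZT3 as well. It called 0 of 29 members, beside 0.0273% of all genes, and 2 of 29 had an unadjusted p below 0.05, beside 3.91% of all genes. Bcl2l15 came first (adjusted p of 0.622). At ZT7 it had 0.119, 0.0273 and 0.318 FPKM in the WT saline libraries, all below the mutant ones.

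**Figure D5:**
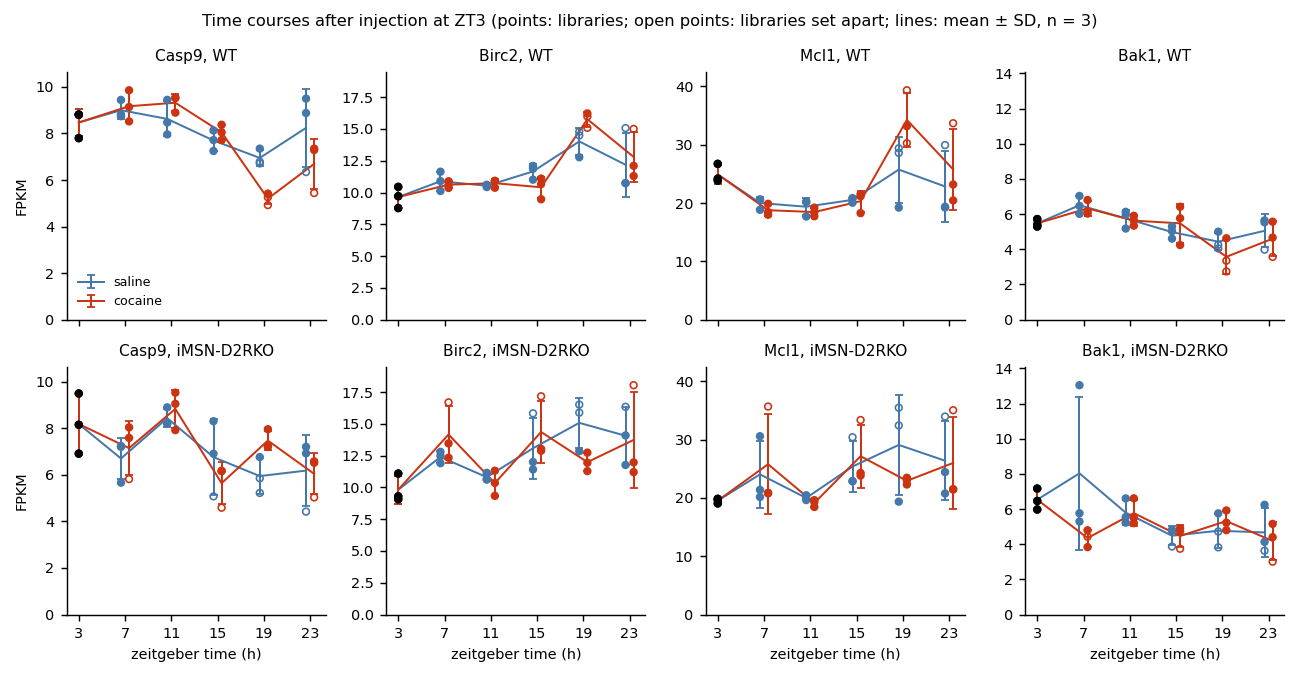
FPKM against zeitgeber time for Casp9, Birc2, Mcl1 and Bak1 in WT and iMSN-D2RKO after saline and cocaine, with lines for the mean, bars for the SD of 3 libraries open points for set-apart libraries and black points for the shared libraries of ZT3. Casp9 in WT after cocaine falls to a mean of 5.2 FPKM at ZT19, where the mutant mean is 7.48 FPKM.

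Rhythms were tested in each series of 18 libraries with JTK_CYCLE, an exact rank test against cosine courses of 20 or 24 h, and genes with a corrected p below 0.01 are termed rhythmic here. The saline and the cocaine series of a genotype share the 3 libraries of ZT3, and their values are given side by side. In WT after saline, 4 of 29 members were rhythmic, beside 9.46% of all genes. In WT after cocaine 3 were, beside 7.48% of all genes. In iMSN-D2RKO, 0 were after saline, beside 2.54% of all genes, and 1 was after cocaine, beside 1.09%. At a corrected p below 0.05 the counts were 6 of 29 in WT after saline (23% of all genes), 4 in WT after cocaine (19.1%), 1 in iMSN-D2RKO after saline (11.1%) and 5 after cocaine (4.12%). The ratio of the highest to the lowest mean over the 6 times had a median over the members of 1.45, 1.57, 1.49 and 1.42 in these 4 series in the same order. An F test over time in limma called 0 members in WT after saline (1.6% of all genes). It called 5 in WT after cocaine (28% of all genes), Casp9, Birc2, Mcl1, Bmf and Bak1. In iMSN-D2RKO it called Birc2 alone after saline (3.49%) and 0 after cocaine (0.997%). An unadjusted p below 0.05 was found for 7 members in WT after saline (19.1% of all genes) and 6 in iMSN-D2RKO after cocaine (14.2%). A call in one series and not in another was not tested as a difference, other than by the F tests of genotype or treatment by time.

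In WT after saline, Bak1 was rhythmic with a peak phase at ZT9 (exact test, corrected p = 0.00115). Its libraries were at 6.01, 7.03 and 6.47 FPKM at ZT7 and at 4.05, 4.25 and 5 FPKM at ZT19. All of ZT7 lay above all of ZT19, with means of 6.5 ± 0.512 and 4.43 ± 0.502 FPKM (SD) and a ratio of 1.47. It stayed rhythmic whichever single library of the series was left out (exact test, corrected p from 6.22e-05 to 0.00507), and without the set-apart libraries (0.00175), but not once the library score was removed (0.0106).

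Birc2 ran opposite, with a phase of ZT19 (exact test, corrected p = 0.00507, 1 value left out by Dixon's test). It rose from 10.4, 9.71 and 8.78 FPKM at ZT3 to 14.8, 14.5 and 12.8 FPKM at ZT19, with no overlap. Replicates 1 and 2 of ZT19 are set apart, and without the set-apart libraries the corrected p was 0.0892. Bcl2l11, encoding Bim, had a phase of ZT7 (exact test, corrected p = 0.00755). It fell from 1.12, 0.981 and 0.838 FPKM at ZT7 to 0.558, 0.622 and 0.562 at ZT19, without overlap. Bcl2l15 had a phase of ZT21 (exact test, corrected p = 0.00755), with 0.119, 0.0273 and 0.318 FPKM at ZT7 and 1.16, 0.404 and 0.898 at ZT19, again apart. Without the set-apart libraries their corrected p were 0.171 and 0.0629. These 3 calls also rested on single libraries. Birc2 was lost without any 1 of the 3 libraries of ZT15 or ZT19 or without replicates 2 or 3 of ZT23 (up to 0.0216). Bcl2l11 was lost without replicates 2 or 3 of ZT3, 1 or 2 of ZT7, 3 of ZT15, any of ZT19 or 1 of ZT23 (up to 0.03). Bcl2l15 was lost without replicates 1 or 2 of ZT3, of ZT7 or of ZT11, 2 or 3 of ZT15 or any of ZT19 (up to 0.03).

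In WT after cocaine, Casp9 had the strongest rhythm of any member in any series (exact test, corrected p = 3.87e-06, 1 value left out by Dixon's test). Its phase was ZT9. At ZT11 its libraries were at 9.52, 8.89 and 9.54 FPKM and at ZT19 at 5.26, 5.42 and 4.92 FPKM, far apart. The means were 9.32 ± 0.368 and 5.2 ± 0.252 FPKM (SD), a ratio of 1.79. Adjusted over all tested genes by Benjamini-Hochberg, its p was 0.0182. The corrected p of Casp9 was 0.0981 in WT after saline, 0.324 in iMSN-D2RKO after saline and 0.945 in iMSN-D2RKO after cocaine.

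Mcl1 had the opposite phase, ZT21 (exact test, corrected p = 6.8e-05). Its libraries were at 17.7, 18.4 and 19.2 FPKM at ZT11 and at 30.3, 33.2 and 39.3 FPKM at ZT19, without overlap, a ratio of 1.86 between means. Casp9 and Mcl1 remained rhythmic under every alternative for the JTK_CYCLE test and without any 1 library (1.42e-07 to 2.05e-05 for Casp9 and 1.7e-05 to 0.000337 for Mcl1). Both stayed rhythmic without the set-apart libraries, but WT cocaine ZT19 then held only 1 library, replicate 2. Its score of 15.1 was the highest of all libraries not set apart, so that this leaves the part of the shift in these rhythms untested.

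Bak1 was rhythmic in WT after cocaine as well (exact test, corrected p = 0.00371), again with a phase of ZT9. Its libraries were at 6.15, 6.03 and 6.80 FPKM at ZT7 and at 2.74, 4.63 and 3.35 at ZT19, all of ZT7 above all of ZT19. Without the set-apart libraries its corrected p was 0.171, and it was lost without any library of ZT7, replicate 1 of ZT11, or replicates 1 or 3 of ZT19 or ZT23 (up to 0.0154). Across the 22 groups, the mean of WT cocaine ZT19 was the lowest for 9 of the 29 members, Bax, Bad, Bbc3, Bmf, Bcl2l11, Bcl2l1, Bcl2l2, Bak1 and Casp9, and the highest for Mcl1 and Birc2. In that group 2 of 3 libraries are set apart, and no share of all tested genes is set beside these counts.

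In iMSN-D2RKO after cocaine, Bad alone was rhythmic, with a phase of ZT21 (exact test, corrected p = 0.00745, 1 value left out by Dixon's test). It was at 25.7, 25.2 and 24.6 FPKM at ZT11 and at 34.2, 38.3 and 33.9 at ZT19, without overlap, with means of 25.2 ± 0.540 and 35.5 ± 2.45 FPKM (SD). This call was lost without Dixon's test (0.0476) and once the library score was removed (0.0216), and its Benjamini-Hochberg value was 0.704. It was also lost without replicate 1 of ZT3, 2 of ZT7, 1 or 2 of ZT15, any of ZT19 or 2 or 3 of ZT23 (up to 0.0981), and stood without the set-apart libraries (0.00408). In the mutant after saline the smallest corrected p was that of Bmf, 0.0269, at 0.638, 1.35 and 0.756 FPKM at ZT7 and 0.643, 0.55 and 0.294 at ZT23, which overlapped in 1 library.

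Other apoptosis genes were taken from lists of the pathway. Of 38 tested genes for death receptor signalling, mitochondrial death factors, the p53 axis, the inflammasome, nucleases and caspase substrates, 0 were called for a mean effect of genotype or of cocaine in limma. The smallest p for genotype in saline were those of Acin1, a caspase substrate in chromatin condensation (34.0 FPKM in WT and 44.2 in the mutant, difference 0.31, adjusted p of 0.18), and Aifm1, the apoptosis-inducing factor (12.3 and 14 FPKM, 0.16, adjusted p of 0.226). For the genotype course after cocaine, 2 of 38 were called, beside 6.98% of all genes: Aim2, a DNA sensor of inflammasomes (adjusted p of 0.0272), and Vdac2, a mitochondrial channel that binds Bak1 (adjusted p of 0.038). Rhythmic among the 38 were 2 in WT after saline (Htra2 and Il18, beside 9.46% of all genes), 4 in WT after cocaine (Cradd, Vdac2, Dffb and Hrk, beside 7.48%), 2 in iMSN-D2RKO after saline (Ccng1 and Dffb, beside 2.54%) and 1 after cocaine (Fadd, beside 1.09%). The F test over time in limma called 14 of 38 in WT after cocaine, beside 28% of all genes, with the smallest adjusted p for Hrk (0.00121), a neuronal BH3-only gene, and Vdac2 (0.00179). It called 3 in iMSN-D2RKO after saline, Aifm1, Acin1 and Mdm2, beside 3.49% of all genes, and 0 in each of the other series (1.6% of all genes in WT after saline and 0.997% in iMSN-D2RKO after cocaine). Vdac2 had its phase at ZT21, as Mcl1 did, and Htra2, the mitochondrial protease that antagonises IAPs, at ZT11.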

How the data were processed

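RNA of ventral striatum punches was sequenced by the authors as stranded poly(A) single-end libraries, processed with CASAVA 1.8.2, aligned to mm10 with TopHat and Bowtie2, and quantified with Cufflinks, Cuffquant and Cuffnorm. The deposited values are FPKM, put on one scale by the authors, in 72 columns, 6 of them repeats of the ZT3 libraries under the other treatment. The annotation release is not given in the sources used here. A gene was tested if any library reached 1 FPKM. Levels were compared with limma 3.58.1 (R 4.3.3) on log2(FPKM + 1), with 22 group means over 66 libraries, empirical Bayes moderation with a trend and Benjamini-Hochberg adjustment over 14643 genes; this scale understates changes of low genes. Rhythm was tested with JTK_CYCLE, rewritten in Python 3.11.15, on FPKM with periods of 20 and 24 h, Dixon's test at 95% on the 3 replicates and correction over 11 pairs of period and phase. The order of tied time points was set by comparison with p-values listed by the authors. Promoters are those of RefSeq, GRCm38.p6. Named were all members, with values for those past a threshold, those of smallest p and the highest of each role. Counting could mix overlapping genes on the same strand, such as Bax and Gm45808, Bcl2l2 and Gm20521, and Diablo and Gm49027. Alternatives changed the pseudocount, filter, scaling, cutoffs, covariates and libraries. Both tests were checked on simulated data. The members and lists were chosen with earlier results of these data known. Values of 2 members, which are in all counts, are not reported here.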

Additional observations from a re-analysis of the deposited data

Results flagged for a closer look

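The genotype difference of Casp9 after cocaine varied over the day (adjusted p = 0.0308, F test of the interaction of genotype and time in limma), as did that of Birc2 (adjusted p = 0.0315). These 2 calls among 29 members were, as a share, no more than that of all genes, 6.98%. In the 3 libraries per group, Casp9 was lower in all iMSN-D2RKO libraries at ZT7 and ZT15 and higher in all at ZT19. Birc2 went the other way at each of these times. The share of all genes that separated in this way was not computed. Of the 3 WT libraries of ZT19, 2 are set apart and 0 of the mutant ones are. The remaining WT library had the highest score of all libraries not set apart (15.1). Without all set-apart libraries the adjusted p in limma were 0.0194 and 0.00353. With the library score as a covariate neither gene was called (0.145 and 0.0894), nor in the fit of the compared groups alone (0.0591 and 0.0774), and both calls were lost without some single libraries. The search for outlying samples needs groups of at least 4, and every group here holds 3, so that Dixon's test was used on single values within the rhythm test only.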

How the results depend on the processing

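Of 344 results recomputed under an alternative, 288 kept their call, as did 1632 of 1734 with 1 library left out, and 0 reversed direction. Counts of called members were 0 for 12 of 16 tests. The number of libraries per group limits what can be seen, and depth is unknown. Leaving out both extreme libraries and reversing the order of tied time points were chosen after seeing the data; the latter changed no member's call. The cause of each change was not tested.

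With the library score as a covariate, genotype in saline called 1 member (Casp9), cocaine at single times in iMSN-D2RKO 1 (Bcl2l15) and genotype by time in cocaine 0, as the fit of compared groups did (0). Without the set-apart libraries, treatment by time and cocaine at single times in WT each called 1 (Mcl1), where ZT19 holds 1 saline and 1 cocaine library (difference 0.76) and the spread comes from other groups. Rhythmic members in WT after saline, 4 as reported, numbered 1 by Benjamini-Hochberg, 1 at the same total, 2 by median-ratio scaling, 2 without the set-apart libraries, 1 with the score removed and 0 by limma's F test. In WT after cocaine, 3 became 5 by the F test. In iMSN-D2RKO after saline, 0 became 1 at a corrected p below 0.05, at the same total, without both extreme libraries and by the F test. After cocaine, 1 became 5 below 0.05, 2 at the same total or with a period of 24 h alone, and 0 by Benjamini-Hochberg, without Dixon's test, with the score removed or by the F test.

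With 1 library left out, counts ran from 0 to 1 for genotype in saline, 0 to 4 for genotype by time in cocaine, 0 to 6 for cocaine at single times in iMSN-D2RKO, and, for rhythm, 1 to 4 and 2 to 4 in WT after saline and cocaine and 0 to 1 and 0 to 2 in iMSN-D2RKO. The 1 in iMSN-D2RKO after saline was Bmf without replicate 1 of ZT7, Xiap without 2 of ZT19 and Bcl2a1b without 3 of ZT23; the 2 after cocaine were Bad with Bcl2 (without ZT3 or ZT7 replicate 3) or with Mcl1 (without any of ZT11).

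Replicate numbers did not pair the libraries: the median correlation of same-numbered deviations was -0.0116, 0.0176 and -0.0078 for numbers 1 to 3, beside 0.0032 for other numbers, and 22 of 66 libraries correlated best with their own number. With the replicate block, cocaine at single times in iMSN-D2RKO called 1 (Bcl2l15), Casp9 and Birc2 had adjusted p of 0.034 and 0.0355 in limma for genotype by time in cocaine, and the F test over time called 1, 5, 1 and 0 members in WT saline, WT cocaine, iMSN-D2RKO saline and iMSN-D2RKO cocaine. It moved no other count by over 1.5 times.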
